A study of Mus musculus with 10 samples.

Results

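The genes described here are the 3 D cyclins (Ccnd1, Ccnd2 and Ccnd3), their partner kinases Cdk4 and Cdk6, the inhibitors Cdkn1a, Cdkn1b, Cdkn1c and Cdkn2c, and Men1, which encodes menin. They were chosen by symbol, and all 10 were found among the 17945 named genes of the deposited table. The libraries were bulk RNA of pancreatic islets from C57BL/6 mice aged 18 weeks. Control mice (5 libraries) had loxP-flanked Grk5 alleles with no Cre named, and knockout mice (5 libraries) carried the same alleles with Pdx1-CreER, a tamoxifen-activated Cre whose Pdx1 promoter is active in β cells. All animals of the series thus share the floxed allele. A Cre-only group was not analysed here, and the tamoxifen dose and time are not given in the sources used here. Group names follow the labels throughout.

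In G1, the phase before DNA replication, D cyclins bind the kinases CDK4 and CDK6, and the active pair phosphorylates the retinoblastoma protein, which releases E2F transcription factors. The INK4 inhibitors, such as p18 (Cdkn2c), bind the kinases themselves. The Cip/Kip inhibitors p21 (Cdkn1a), p27 (Cdkn1b) and p57 (Cdkn1c) bind cyclin and kinase together, chiefly on CDK2. In mouse β cells, cyclin D2 and CDK4 are needed for postnatal growth of the β-cell mass. Menin, a tumour suppressor lost in familial endocrine tumours, works with MLL histone methyltransferases, which maintain expression of Cdkn1b and Cdkn2c.

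The libraries were of unequal depth and 2 controls stood apart. Counting the most frequent small value of each library as 1 read, the totals correspond to 2072863 (knockout 1) to 10951875 (knockout 3) reads. Between 22.6% (control 5) and 33.6% (knockout 4) of the values above 0 came out as whole multiples of that small value. Read numbers here and below are therefore rough estimates. Of 5554 genes at 50 or more in each of the other 9 libraries, 118 were at 0 in knockout 1, against 2 to 16 of 5208 to 5313 such genes in any other library. Grk5, the targeted gene, was 242 ± 112 in controls and 161 ± 74.9 in knockouts (mean ± SD, n = 5), with overlapping groups and a log2 fold change of -0.55 ± 0.42 (SE; limma adjusted p = 0.955). Without controls 2 and 5, Grk5 was at -0.94 ± 0.47 (limma unadjusted p = 0.0627), the lowest of 21 alternatives. With library quality weights it was at -0.94 ± 0.40 (limma unadjusted p = 0.0277, adjusted p = 0.877). Without controls 2, 3 and 5 it was at -0.75 ± 0.58 (limma unadjusted p = 0.214), and with single libraries omitted between -0.76 and -0.36. In the authors' deposited table it is -0.60, adjusted p 0.953. Esr1, part of which is built into CreER fusions, was 2495 in control 2 and 773 in control 5, 0 to 10.5 in the other controls and at least 1517 in knockouts. Values without controls 2 and 5 therefore stand beside each of the tested members below, and beside several other genes. Insulin transcripts (Ins1 and Ins2) made up 12.3% to 17.8% of each library. The summed β-cell markers, mostly insulin, were 960729 to 1183710 in controls and 970943 to 1283460 in knockouts. All 10 β-cell markers had a negative log2 fold change (median -0.21), against 52.4% of all genes tested, and 0 passed after adjustment. Slc2a2 was at -0.49 ± 0.17 (SE; limma unadjusted p = 0.0103). The 4 δ- and PP-cell markers were lower too. Of 6 α-cell markers, 3 were higher and 3 lower, with Gc at 1.05 ± 0.29 (limma unadjusted p = 0.00205).

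None of the 10 genes passed the test between knockout and control islets. Cdk6, which encodes a G1 kinase, had the largest difference, with 4 of 5 knockouts below the lowest control. Cdkn1a, which encodes the inhibitor p21, had the next largest among genes without a value of 0, with 4 of 5 knockouts above the highest control. Ccnd2, the most abundant of the 10, had nearly equal means, and its 95% limits allowed a ratio of knockout to control between 0.817 and 1.17. With a plain variance in limma its SE rose from 0.12 to 0.24, which widens these limits. Normalized counts were compared as log2(value + 8) with limma over all genes, a scale that understates the change of low genes. Among the 11711 genes tested, 0% passed at an adjusted p of 0.05, and 587 (5.01%) had an unadjusted p under 0.05. Of the 10 genes, 9 were tested, 8 with a lower and 1 with a higher knockout mean on this scale, and the median log2 fold change was -0.37. Over all genes tested, 52.4% were lower and the median was -0.03. At an unadjusted p under 0.05 there was 1 member, Cdk6, lower, where 2.66% of all genes tested were lower at that threshold. Cdkn2c was below 10 in 6 libraries and was not tested. No member had groups that did not overlap, a pattern seen in 0.862% of all genes tested. Whether fewer cells of a type or less RNA per cell lies behind a value cannot be told apart in bulk islets.

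**Figure D1:**
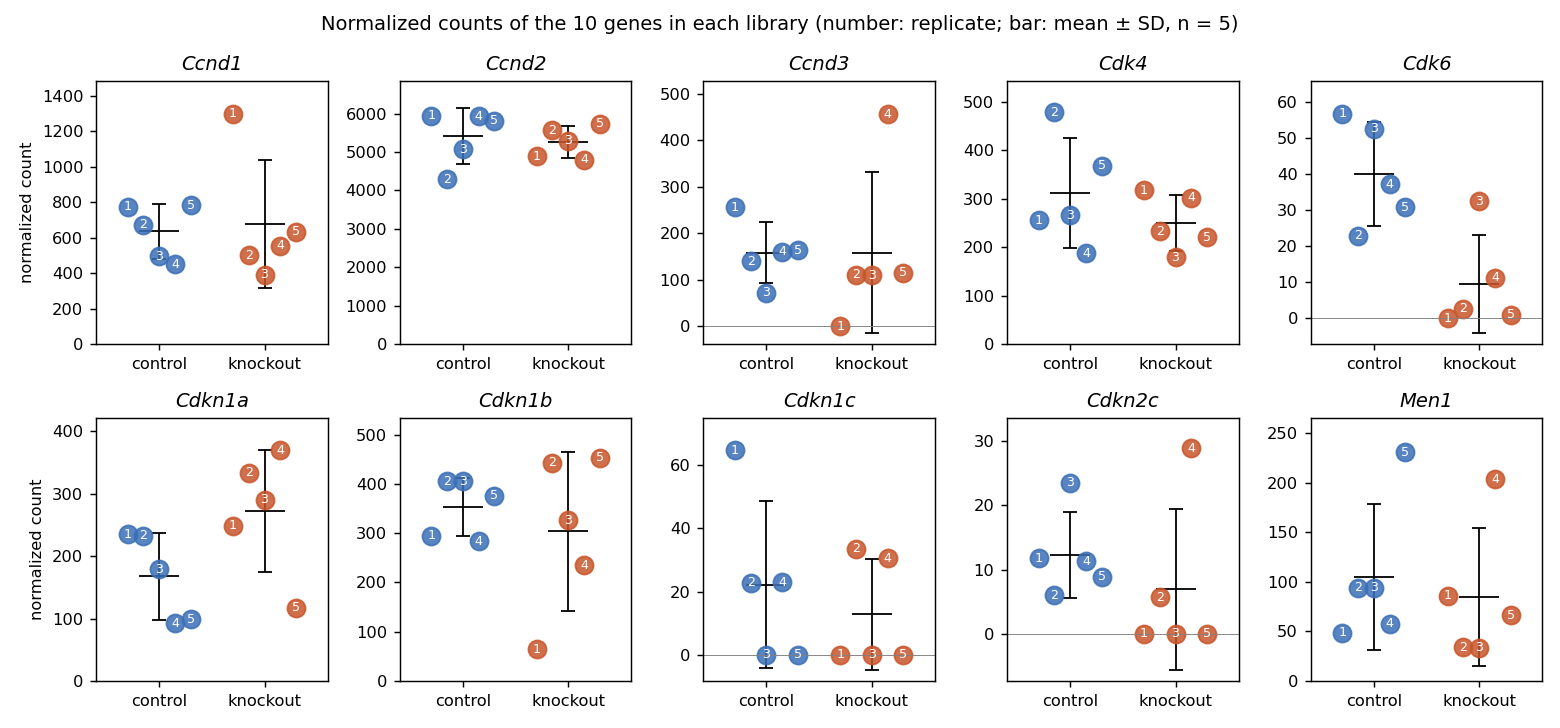
Normalized count (linear axes, 1 panel per gene) of each of the 10 genes in 5 control and 5 knockout libraries; numbers in the points are replicates, and bars are the mean ± SD. The groups overlap in every panel, and knockout 1 is the highest of 10 libraries for Ccnd1 and the lowest for Ccnd3 and Cdkn1b.

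**Figure D2:**
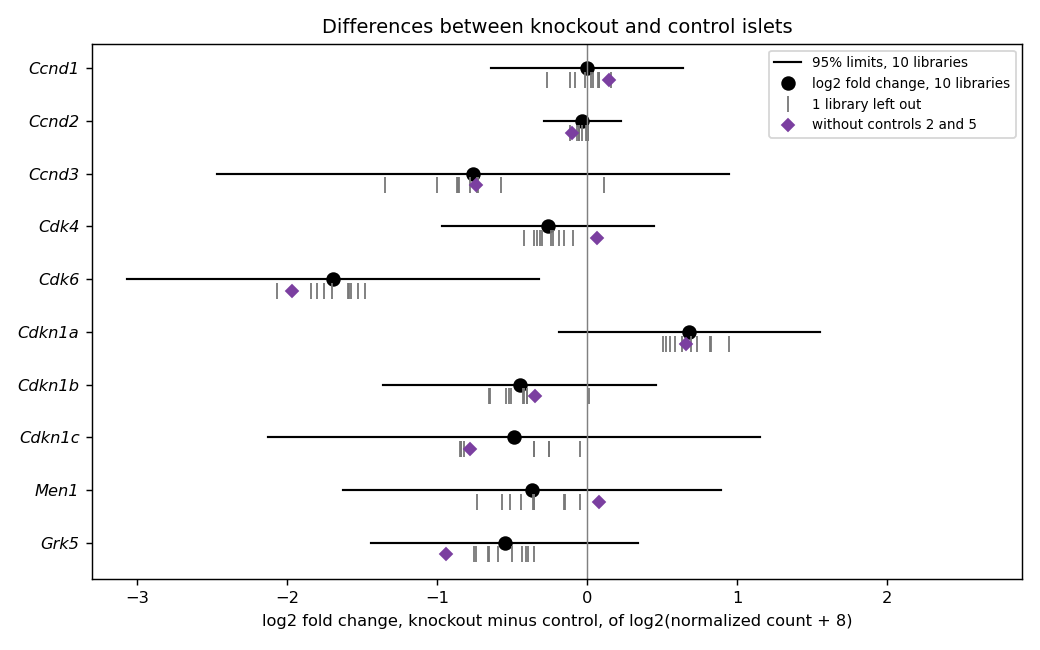
Log2 fold change, knockout minus control, on the log2(value + 8) scale for the 9 tested genes and Grk5: points and lines are the estimate and its 95% limits from limma over 10 libraries, grey ticks leave out 1 library each, and diamonds leave out controls 2 and 5. Cdk6 alone has limits that stay on 1 side of 0, before any adjustment for the number of genes tested.

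The levels of the 10 genes spanned a wide range when divided by length. Per kilobase of exon (the union of annotated exons), Ccnd2 had a median of 577 normalized counts over the 10 libraries, from 456 to 632. Ccnd1 followed at 126 per kilobase, from 82.9 to 276, and no library of Ccnd1 reached the lowest of Ccnd2. Cdk4, Cdkn1b and Cdkn1a had medians of 80.3, 77.2 and 65.8 per kilobase, with overlapping ranges and Cdk4 above Cdkn1b in 5 of 10 libraries. Men1 and Ccnd3 stood at 19.8 and 14.5, and Cdkn1c, Cdkn2c and Cdk6 at 5.61, 2.78 and 1.92. Every neighbouring pair below Ccnd2 had overlapping ranges. Taking the longest coding transcript as the length instead put Ccnd3 at 60.1, above Men1 at 25.6, and Cdkn1a at 112, above Cdkn1b at 77.2. The 16 coding transcripts of Ccnd3 spread over 8775 bases of exon while the longest has 2113.

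**Figure D3:**
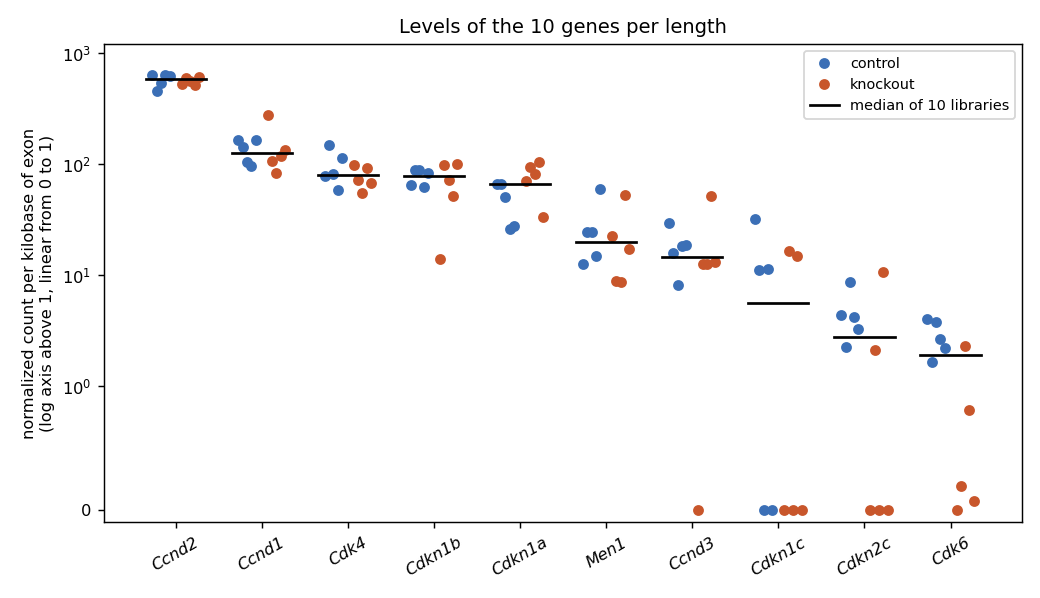
Normalized count per kilobase of exon for each gene in each library (y axis logarithmic above 1 and linear below), ordered by the median over 10 libraries. Ccnd2 lies above all other genes in each library, and the points at 0 belong to Ccnd3, Cdkn1c, Cdkn2c and Cdk6.

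Cyclin D2 (Ccnd2, chromosome 6, 127125162 to 127152193, minus strand, GRCm38) is the D cyclin on which postnatal β-cell expansion chiefly relies. Controls 1 to 5 held 5948, 4293, 5068, 5926 and 5815 normalized counts. Knockouts 1 to 5 held 4888, 5569, 5293, 4799 and 5738. All knockouts lay between the lowest and the highest control. The means were 5410 ± 722 and 5257 ± 411 (mean ± SD, n = 5), and the log2 fold change was -0.03 ± 0.12 (SE; limma adjusted p = 0.987). Without controls 2 and 5 it was -0.10 ± 0.14. With a plain variance in limma and all 10 libraries the SE was 0.24. Ccnd2 also varied little between libraries. Its residual SD was 0.165 on the log2 scale, and 9.0% of the 500 tested genes closest to it in level had a smaller one.

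Cyclin D1 (Ccnd1, chromosome 7, 144929931 to 144939925, minus strand) is the D cyclin most responsive to growth factors in many cell types. It was 775, 674, 494, 450 and 781 in controls and 1298, 500.8, 391, 554 and 634 in knockouts. Knockout 1, the shallowest library by the estimate from low values, was the highest of the 10 and knockout 3 the lowest. The other 3 knockouts lay within the controls. The log2 fold change was -0.0037 ± 0.30 (SE; limma adjusted p = 0.9997), with 95% limits of -0.64 to 0.63. It was -0.27 without knockout 1 and 0.15 ± 0.37 without controls 2 and 5, so no direction can be given.

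Cyclin D3 (Ccnd3, chromosome 17, 47505051 to 47599691, plus strand), prominent in lymphoid and muscle cells, was the least abundant D cyclin. Controls held 256, 139, 71.9, 160 and 164 normalized counts, and knockouts 0, 111, 110, 456 and 115. Knockout 1 was at 0 and knockout 4 at the highest of all libraries, whereas the other 3 knockouts fell inside the control range. The arithmetic means were 158 ± 66.1 and 158 ± 173 (mean ± SD, n = 5). On the log2 scale the difference was -0.76 ± 0.80 (SE; limma adjusted p = 0.963), and it was 0.11 without knockout 1 and -1.35 without knockout 4. Leaving out controls 2 and 5 gave -0.74 ± 1.01. In the authors' deposited table it is -0.02. Ccnd3 overlaps Bysl by 361 bases on the opposite strand, and whether strand was used in counting was not given in the sources used here, so reads there may belong to either gene.

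Within the D cyclins the makeup was similar in both groups. Ccnd2 made up 79.0% ± 4.45 of their summed level per kilobase in controls and 77.9% ± 8.05 in knockouts (mean ± SD, n = 5). Ccnd1 took 18.6% ± 4.09 and 19.5% ± 8.75. The lowest share of Ccnd2, 65.3%, and the highest of Ccnd1, 34.7%, were in knockout 1. These shares are descriptions with no test.

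CDK4 (Cdk4, chromosome 10, 127063534 to 127067920, plus strand) is the main D cyclin partner in β cells, and mice without it have too few β cells and develop diabetes. Cdk4 was 256, 478, 266, 188 and 368 in controls and 318, 233, 180, 302 and 221 in knockouts. Controls 2 and 5 were the highest libraries, and 4 of 5 knockouts lay within the control range. The means were 311 ± 113 and 251 ± 57.7 (mean ± SD, n = 5), with a log2 fold change of -0.26 ± 0.34 (SE; limma adjusted p = 0.968). Without controls 2 and 5 the direction turned, to 0.07 ± 0.38. Omitting single libraries gave -0.42 (without control 4) to -0.09 (without control 2). Cdk4 overlaps Tspan31 by 641 bases on the opposite strand, with the same uncertainty as for Ccnd3. The spans of Ccnd1, Ccnd2, Cdk6, Cdkn1a and Cdkn1c also overlap opposite-strand genes, none listed by that name in the deposited table. Among them are LTO1 for Ccnd1 (1771 bases), 9330179D12Rik for Ccnd2 (2805) and Gm17590 for Cdk6 (8013). The same uncertainty holds there.

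CDK6 (Cdk6, chromosome 5, 3341485 to 3531008, plus strand) is the alternative partner, better known from blood cells and scarce in mouse islets. Controls 1 to 5 were at 56.7, 23.0, 52.5, 37.1 and 30.8 normalized counts, and knockouts at 0, 2.69, 32.4, 11.3 and 1.01. Knockout 3 lay above controls 2 and 5, and the other 4 knockouts below every control. The means were 40.0 ± 14.3 and 9.48 ± 13.6 (mean ± SD, n = 5), and the log2 fold change was -1.69 ± 0.65 (SE), with 95% limits of -3.07 to -0.32. By limma the p was 0.0184 before and 0.942 after adjustment. The exact permutation test (2-sided) gave p = 0.0238. Over 20 alternatives the adjusted p stayed between 0.874 and 0.9999. The log2 fold change ran from -2.97 with a pseudocount of 1 to -0.83 with a pseudocount of 32, and was -1.97 ± 0.78 without controls 2 and 5 (unadjusted p = 0.0232 by limma). In that comparison 4.3% of all genes tested had an unadjusted p under 0.05, 2.37% of all genes being lower. After adjustment 0.00854% passed, which was Esr1. Because controls 2 and 5 were left out for their Esr1 values, that pass follows from the choice of libraries. Without control 3 as well, Cdk6 was at -1.92 ± 0.95 (unadjusted p = 0.0608 by limma). In the authors' deposited table it is -2.01, adjusted p 0.757. By the same estimate Cdk6 rested on 23.1 to 73.1 reads per control and on 0 to 4.81 reads in 4 knockouts, with 61.4 in knockout 3, the deepest by this estimate.

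Acinar markers also differed between these libraries. Of 19 tested acinar markers, from the enzyme-secreting tissue around islets, 18 were lower and 1 higher in knockouts. Their summed level was 22633 to 290453 in controls and 32660 to 90486 in knockouts, and none of the 20 in the table was at 0 in all libraries. With their mean as a covariate, Cdk6 was at -1.33 ± 0.74 (SE, unadjusted p = 0.0894 by limma). Control 2 had the lowest acinar sum of all 10 libraries and the lowest Cdk6 of the controls, whereas knockout 3 had the highest acinar sum and the highest Cdk6 of the knockouts. Control 4 had the highest acinar sum of all and the middle Cdk6 value of the controls. Control 2, with a lower acinar sum than any knockout, had more Cdk6 (23.0) than 4 of 5 knockouts (0, 2.69, 11.3 and 1.01). The same covariate moved Cdk4 to -0.59 ± 0.35, Cdkn1a to 0.44 ± 0.47, Ccnd3 to -0.42 ± 0.91, Ccnd1 to -0.23 ± 0.34 and Ccnd2 to 0.08 ± 0.13 (SE), and none passed. Ductal markers summed to 8527 to 10359 in controls and 6699 to 8856 in knockouts, and the duct keratin gene Krt19 was at 0 in 6 libraries. Krt8 and Krt18 made up most of that sum. Of 8 tested, 5 were lower, with Krt8 at -0.46 ± 0.13, and 3 higher, with Krt7 at 0.54 ± 0.26 and Spp1 at 0.73 ± 0.46 (SE). Beyond the covariate, the acinar part in the Cdk6 values was not tested, and neither was the ductal part.

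Per kilobase of exon, Cdk4 made up 96.7% ± 1.71 of the Cdk4 and Cdk6 sum in controls and 98.9% ± 1.69 in knockouts (mean ± SD, n = 5). The promoters of these kinases are shown because the transcripts of these partners stand far apart in level, and Cdk6 had the largest difference between groups. The sequences are RefSeq's, on GRCm38.p6, plus strand, and run over the 250 bases before the RefSeq start site. They span chr10:127063285-127063534 for Cdk4 and chr5:3343643-3343892 for Cdk6. The Cdk6 position given above is GENCODE's and starts at 3341485, so the Cdk6 window lies inside the gene as placed there. Capitals mark CACGTG, the E-box core bound by MYC and related factors.
Cdk4: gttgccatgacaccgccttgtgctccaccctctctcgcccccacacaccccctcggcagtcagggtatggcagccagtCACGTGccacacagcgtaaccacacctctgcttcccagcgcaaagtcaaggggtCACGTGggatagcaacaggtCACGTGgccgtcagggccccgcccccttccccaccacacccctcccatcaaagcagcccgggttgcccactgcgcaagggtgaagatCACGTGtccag
Cdk6: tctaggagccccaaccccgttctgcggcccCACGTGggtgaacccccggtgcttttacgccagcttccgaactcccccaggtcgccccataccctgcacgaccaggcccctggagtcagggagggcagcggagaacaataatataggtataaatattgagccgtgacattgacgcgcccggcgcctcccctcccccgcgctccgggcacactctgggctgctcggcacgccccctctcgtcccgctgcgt
The Cdk4 window held 4 copies of CACGTG, a palindrome that reads alike on either strand, and the Cdk6 window 1. Among 32851 RefSeq windows of 300 bases, 7.15% held at least 1 copy and 8 windows, 0.0244%, held 4 or more. Of the 10 genes, 7 had a window in that table (Ccnd3, Cdk4, Cdk6, Cdkn1a, Cdkn1b, Cdkn2c and Men1). TGACGTCA, the cAMP response element and also a palindrome, was in none of the windows of these 7, and 1.79% of all windows held it. A match describes the letters only. Myc itself, examined after its values were seen, was 90.6 ± 85.8 in controls and 96.7 ± 57.6 in knockouts (mean ± SD, n = 5). Its log2 fold change was 0.27 ± 0.61 (SE; limma unadjusted p = 0.665), and 0.90 ± 0.68 without controls 2 and 5 (limma unadjusted p = 0.208).

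The Cip/Kip inhibitor p21 (Cdkn1a, chromosome 17, 29090976 to 29100727, plus strand) is a p53 target that halts the cycle after DNA damage or stress. Its values were 235, 232, 179, 92.4 and 98.7 in controls and 248.8, 334, 290, 370 and 117 in knockouts. Knockouts 1 to 4 lay above every control, and knockout 5 above controls 4 and 5 only. The means were 168 ± 69.5 and 272 ± 97.6 (mean ± SD, n = 5). Its log2 fold change of 0.68 ± 0.41 (SE) did not pass (adjusted p = 0.942 by limma, exact 2-sided permutation p = 0.119), with 95% limits that allow a ratio from 0.878 to 2.93. It was 0.66 ± 0.47 without controls 2 and 5. Omitting 1 library at a time gave 0.50 to 0.95, and the acinar covariate 0.44 ± 0.47 (limma unadjusted p = 0.356). In the authors' deposited table it is 0.70, adjusted p 0.864.

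The inhibitor p27 (Cdkn1b, chromosome 6, 134920401 to 134925513, plus strand) holds resting cells in G1 and accumulates in adult β cells. Cdkn1b was 295, 405, 405, 284 and 376 in controls and 63.9, 443, 326, 235 and 453 in knockouts. Knockout 1 was far below all other libraries, and knockouts 2 and 5 above every control. The log2 fold change of -0.45 ± 0.43 (SE; limma adjusted p = 0.963) was 0.01 without knockout 1. It was -0.35 ± 0.54 without controls 2 and 5. Knockout 1 was thus the extreme library for Ccnd1, Ccnd3 and Cdkn1b, and it was also at 0 for Cdk6, Cdkn1c and Cdkn2c.

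The inhibitor p57 (Cdkn1c, chromosome 7, 143458339 to 143461050, minus strand), an imprinted gene expressed from the maternal copy, was at 0 in 5 of 10 libraries. It was 64.7, 22.9, 0, 23.0 and 0 in controls and 0, 33.5, 0, 30.6 and 0 in knockouts. The 5 libraries above 0 held 13 to 45 reads by the estimate from low values. The 5 at 0 included knockout 3, the deepest by that estimate. The log2 fold change was -0.49 ± 0.78 (SE; limma adjusted p = 0.971), and -0.78 ± 0.92 without controls 2 and 5. Without control 1 it was -0.05.

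As a share of the Cip/Kip level per kilobase, Cdkn1a made up 33.5% ± 7.41 in controls and 53.5% ± 21.4 in knockouts, and Cdkn1b 59.0% ± 13.1 and 43.1% ± 21.9 (mean ± SD, n = 5). Among knockouts the Cdkn1a share ran from 24.9% in knockout 5 to 83.3% in knockout 1. These shares carry no test.

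The INK4 inhibitor p18 (Cdkn2c, chromosome 4, 109660876 to 109667189, minus strand) was the lowest inhibitor. Controls held 11.8, 6.03, 23.5, 11.3 and 8.89 normalized counts, and knockouts 0, 5.71, 0, 28.8 and 0. All 5 controls were above 0, against 2 of 5 knockouts, yet knockout 4 was the highest library. Fitted without the filter on low values, its log2 fold change was -0.69 ± 0.59 (SE; limma adjusted p = 0.899, exact 2-sided permutation p = 0.175). In reads by the estimate from low values, the control values correspond to 6.06 to 32.7 and the knockout values to 0 to 12.3.

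Menin (Men1, chromosome 19, 6334979 to 6340891, plus strand) was 48.6, 93.9, 93.8, 57.4 and 230 in controls and 86.0, 33.8, 33.6, 203 and 66.1 in knockouts. Control 5 and knockout 4 stood well above the rest in their groups, and the groups overlapped. The means were 105 ± 73.2 and 84.5 ± 70.0 (mean ± SD, n = 5), with a log2 fold change of -0.37 ± 0.60 (SE; limma adjusted p = 0.971). Without controls 2 and 5 it turned to 0.08 ± 0.72. Omitting single libraries gave -0.74 (without knockout 4) to -0.05 (without control 5).

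Pairs of these genes were then compared across the 10 libraries, which share differences in depth. Of 36 pairs among the 9 tested genes, none passed after adjustment. Men1 and Cdk4 had the highest rank correlation, with Pearson's r of 0.66 (permutation p = 0.0389, adjusted p = 0.540) and Spearman's rho of 0.818 (permutation p = 0.0054, adjusted p = 0.194). Without control 2 and knockout 3, the libraries farthest from the median of Cdk4, r was 0.757. Within the 7 libraries left without controls 2, 3 and 5, whose low values are spaced differently, it was 0.682. Men1 and Cdkn1b, a known pair of regulator and target, had r of -0.132 and rho of -0.115 (permutation p = 0.697 and 0.760, adjusted p = 0.964 and 0.966). Cdkn1b and Ccnd3 had r of 0.685 (permutation p = 0.0988, adjusted p = 0.540) but rho of -0.212 (permutation p = 0.560, adjusted p = 0.943). Their r became -0.607 without knockouts 1 and 4 and therefore rests on them.

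The genes around these members were described from lists of known partners and regulators. No gene of the 6 lists passed over all genes tested. The RB and E2F list, with the remaining G1 cyclins, kinases and inhibitors, had 17 of 24 genes tested, 9 higher and 8 lower (median 0.12). Rb1, which encodes the retinoblastoma protein, was 184 ± 97.3 in controls and 269 ± 229 in knockouts (mean ± SD, n = 5). Of the E2F dimerization partners, Tfdp2 was at 192 ± 74.8 and 248.6 ± 132. Tfdp1 was 51.1 ± 30.1 and 16.0 ± 22.4, listed at 0 in 3 knockouts, with a log2 fold change of -1.69 ± 0.75 (SE; limma unadjusted p = 0.0372, adjusted p = 0.942). Without controls 2 and 5 it was -1.71 ± 0.89 (limma unadjusted p = 0.0725).

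Turnover of these proteins runs through ubiquitin ligases and the kinase GSK3β, which marks cyclin D1 for export and degradation. In that list 11 of 14 tested genes were higher and 3 lower (median 0.14). Gsk3b was 909, 789, 1041, 903 and 809 in controls and 764, 561, 878, 523 and 387 in knockouts. Only knockout 3 reached the control range. Its log2 fold change was -0.56 ± 0.25 (SE; limma unadjusted p = 0.0346, adjusted p = 0.942), and -0.66 ± 0.30 without controls 2 and 5. With the acinar covariate it was -0.48 ± 0.28 (limma unadjusted p = 0.111). The ligase subunit genes Skp1a and Ddb1 were at 0.20 ± 0.21 and 0.02 ± 0.24.

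Menin's partners in the MLL complexes had 8 of 9 genes tested, 5 higher and 3 lower (median 0.16). Kmt2a, which encodes the methyltransferase MLL1, was 1868, 2562, 1280, 2171 and 1734 in controls and 3360, 2396, 2872, 2868 and 2385 in knockouts. Knockouts 1, 3 and 4 lay above every control, and knockouts 2 and 5 below control 2 alone. The log2 fold change was 0.55 ± 0.18 (SE; limma unadjusted p = 0.00749, adjusted p = 0.942), and 0.67 ± 0.21 without controls 2 and 5. With a plain variance in limma its SE was 0.28 (unadjusted p = 0.0729). Without control 3 as well as controls 2 and 5 it was 0.45 ± 0.22 (limma unadjusted p = 0.0611). Psip1, whose product tethers menin to chromatin, was at -0.36 ± 0.25. The Polycomb genes, which repress the Cdkn2a locus, had 4 of 8 higher and 4 lower (median -0.04), with Bmi1 at 0.10 ± 0.34 (0.47 ± 0.34 without controls 2 and 5) and Cbx7 at 0.24 ± 0.46.

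The p53 list, to which Cdkn1a is linked as a target, had 17 of 19 genes tested, 11 higher and 6 lower (median 0.22). At an unadjusted p under 0.05 there were 3 higher (Ccng1, Bax and Aen) and 0 lower, where 2.36% of all genes tested were higher at that threshold. Ccng1, a p53-induced cyclin gene, was 198, 375, 603, 650 and 368 in controls and 865, 623, 819, 1228 and 1086 in knockouts. Knockout 2 lay below control 4, and the other 4 knockouts above every control. Its log2 fold change was 1.14 ± 0.31 (SE; limma adjusted p = 0.881), and 1.06 ± 0.37 without controls 2 and 5. Aen, a nuclease gene of p53-driven apoptosis, was 150 ± 87.2 and 353 ± 137 (mean ± SD, n = 5), a log2 fold change of 1.27 ± 0.42 (SE; limma adjusted p = 0.942). Bax, which encodes a pore-forming apoptosis protein, was listed at 0 in controls 1, 2, 4 and 5 and in knockout 4, and at 46.0 in control 3. The other knockouts held 21.3, 58.7, 72.8 and 189. Its log2 fold change was 2.03 ± 0.85 (SE; limma unadjusted p = 0.0277), and 1.66 ± 1.05 without controls 2 and 5 (limma unadjusted p = 0.134), where Aen was at 1.33 ± 0.45 (limma unadjusted p = 0.0088). Bax thus left the genes under 0.05 in that comparison, and also with 7 of 10 single libraries omitted (limma unadjusted p up to 0.0886). The most abundant genes of the list were Btg2 at -0.43 ± 0.30 (-0.12 ± 0.29 with the acinar covariate) and Trp53inp1 at 0.13 ± 0.27.

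Upstream regulators of D cyclin and inhibitor genes had 17 of 21 genes tested, 10 higher and 7 lower (median 0.11). Nfatc1, a calcineurin-dependent factor that drives β-cell cycle genes, was 0, 200, 11.98, 8.36 and 42.7 in controls and 212, 230, 53.1, 65.1 and 162 in knockouts. Control 2 overlapped the knockouts. The log2 fold change was 2.10 ± 0.80 (SE; limma unadjusted p = 0.0169, adjusted p = 0.942). It was 3.26 ± 0.78 without controls 2 and 5 (adjusted p = 0.497 by limma), and its adjusted p over all alternatives ran from 0.497 to 0.9999. With the acinar covariate it was 1.10 ± 0.77 (limma unadjusted p = 0.172). Ctnnb1 (β-catenin) and Foxo3, a forkhead factor that activates Cdkn1b, were at -0.19 ± 0.20 and 0.11 ± 0.35. Without controls 2 and 5, Foxo3 was at 0.44 ± 0.40.

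**Figure D4:**
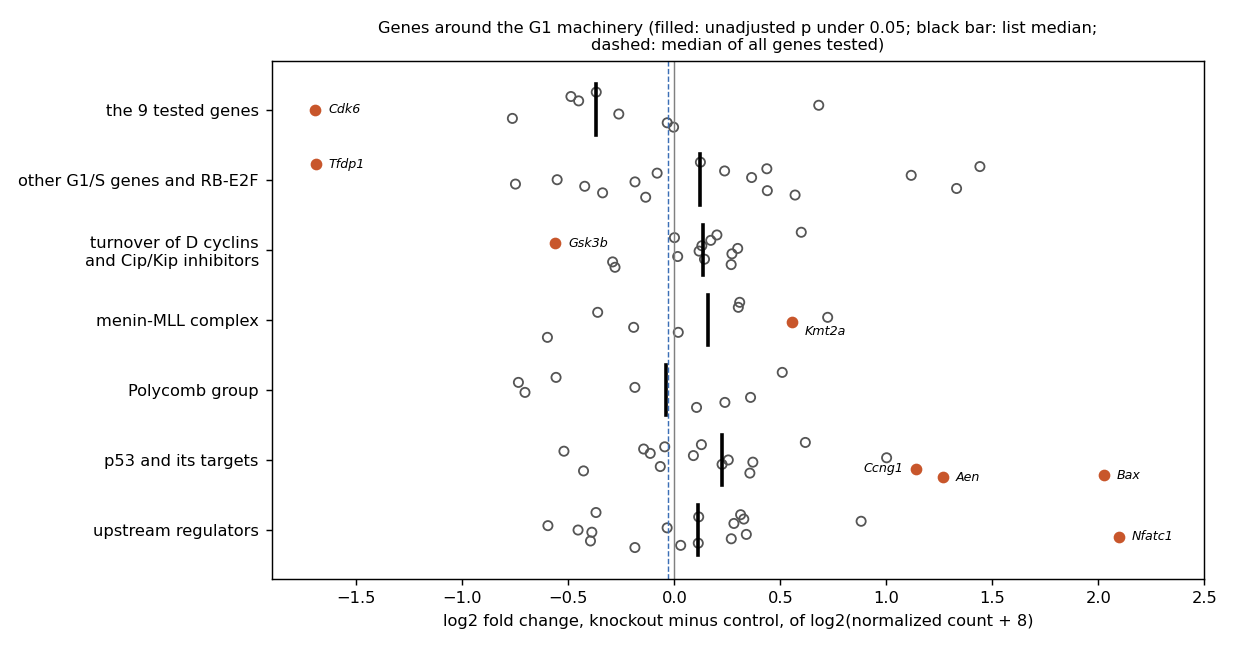
Log2 fold change (x axis, knockout minus control) of each tested gene in the 10-gene set and in 6 lists of partners and regulators; filled points have an unadjusted p under 0.05 by limma, black bars are list medians and the dashed line is the median of all genes tested, -0.03. The filled points are 7 genes of the 6 lists and Cdk6, and none passed after adjustment.

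Of 10 tested markers of dividing cells, 7 were higher and 3 lower in knockouts (median 0.44), and none passed after adjustment. Mcm4, a helicase subunit gene, was lower at -1.59 ± 0.71 (SE; limma unadjusted p = 0.0377). Mki67, a marker of cycling cells, was 107 ± 92.6 in controls and 214 ± 214 in knockouts, and the replication clamp gene Pcna 229 ± 65.2 and 172 ± 81.5 (mean ± SD, n = 5). Their log2 fold changes were 1.16 ± 1.02 and -0.50 ± 0.41 (SE; limma adjusted p = 0.955 for each). Mki67 ran from 0.43 without control 5 to 1.87 without knockout 5, and was 0.71 ± 0.99 without controls 2 and 5, where Pcna was at -0.29 ± 0.49. The summed proliferation markers were 497 to 881 in controls and 549 to 1412 in knockouts, the highest in knockout 1. Endothelial markers, from cells that also use D cyclins, summed to 2739 to 3572 in controls and 3342 to 4062 in knockouts, stromal markers to 809 to 1267 and 785 to 1079, and immune markers to 207 to 300 and 199 to 922. Knockout 4 held the immune maximum and was also highest for Ccnd3, prominent in lymphoid and muscle cells. Knockout 1 had the next highest immune sum, 424, and Ccnd3 at 0. The part of immune cells in the Ccnd3 values was not tested.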

How the data were processed

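The authors' deposited table holds normalized counts per gene (a signal on a common scale between libraries, not whole reads) for 10 libraries. Per the submitters' processing notes, STAR 2.4.0.1, HTSeq and DESeq2 were used, with no roles given. The build, annotation and strand setting of counting are not given in the sources used here. Log2 fold changes, a test score and p-values of the authors stand in the same deposited table and are quoted only where it is named. Of 17946 rows, 1 had no gene name (0.00774% to 0.0251% of a library) and was left out.

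Because the values are not whole reads, limma 3.58.1 in R 4.3.3 was run on log2(value + 8), for 11711 genes at 10 or more in at least 5 libraries, with a variance trend, robust estimates and Benjamini-Hochberg adjustment at 0.05. Steps were tested on simulated data. The labels do not say that libraries are separate animals, so p-values measure the spread between libraries. The exact permutation test uses 252 arrangements (smallest p 0.00794). No pairing is given. The members and lists were chosen with earlier results of these data known. Genes named from lists are the 2 most abundant and those with an unadjusted p under 0.05. Gene positions and lengths are from GENCODE M21. Alternatives varied pseudocount, filter, scaling, variance, weights, an acinar covariate and the libraries used.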

Additional observations from a re-analysis of the deposited data

Results flagged for a closer look

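In a group of 5, a library was singled out when its gap to the next value exceeded 0.71 of the group's range (Dixon's 95% value). Of 66 groups, from 33 named genes, 10 met this, each by its highest library. Chance gives about 1 in 20 for normally distributed values. These counts are skewed upwards and their chance rate was not measured, so nothing is read from the number. Among the cell cycle members, Ccnd1 was 1298 in knockout 1, Ccnd3 was 456.1 and Cdkn2c 28.84 in knockout 4, and Men1 was 230.4 in control 5. Control 5 also held the high values of Bmi1 (781.5) and Myc (239.8). Control 2 held those of Pcna (342.9) and Nfatc1 (200.4). Cbx7 was 1061 in knockout 1, and Bax was 45.98 in control 3, where the other controls were at 0.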

How the results depend on the processing

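Each fit was repeated under 21 alternatives, of which the fit without controls 2, 3 and 5 was chosen after seeing the data. The tested members gave 187 values: 169 kept their direction, 18 turned, and 0 passed the adjusted threshold. The number of genes called went from 0 to 1 with a plain variance (Commd8), to 1 without controls 2 and 5 (Esr1), to 4 without controls 2, 3 and 5, and ranged from 0 to 1 with single libraries left out. None was a member. Esr1 was the reason for leaving out controls 2 and 5, so its call there follows from that choice. With total-count scaling Ccnd1 was at 0.017. With the acinar covariate Ccnd2 was at 0.084, Foxo3 at -0.13 and Trp53inp1 at -0.00069. Without controls 2 and 5, Ccnd1 was at 0.15, Cdk4 at 0.066, Men1 at 0.075, Ddb1 at -0.17 and Trp53inp1 at -0.17. Without controls 2, 3 and 5, Ccnd1 was at 0.063, Cdk4 at 0.16, Men1 at 0.32, Ddb1 at -0.23, Mki67 at -0.35 and Trp53inp1 at -0.034. With single libraries left out, Ccnd1 ran from -0.27 to 0.16, Ccnd2 from -0.11 to 0.0032, Ccnd3 from -1.35 to 0.11 and Cdkn1b from -0.66 to 0.014. Over the same omissions, Bmi1 ran from -0.027 to 0.39, Cbx7 from -0.20 to 0.48, Ctnnb1 from -0.31 to 0.0051, Ddb1 from -0.11 to 0.15, Foxo3 from -0.050 to 0.44, Rb1 from -0.16 to 0.63, Tfdp2 from -0.17 to 0.73 and Trp53inp1 from -0.16 to 0.27. The cause of these turns was not tested. Cdk6 kept its direction under the 20 alternatives in which it was tested, and was not tested at a minimum of 50. No paired analysis was possible because the labels give no replicate numbers shared between groups. Cdk6, Cdkn1c and Cdkn2c held no more than 64.7 normalized counts in any library, so their values rest on few reads.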

Other observations

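Of 13 genes of the pathway lists that were too low to be tested, 8 had a higher and 5 (Cdk2, Cdkn2a, E2f3, E2f6 and Dpy30) a lower knockout mean. The share over all genes too low to be tested was not computed. Fitted without the filter, Cdk2 and E2f6 had log2 fold changes of -0.0040 and 0.0044. The 4 described next were chosen after their values were seen, and all 4 had a higher knockout mean. E2f2, an activating E2F gene, was 0, 3.58, 5.18, 6.07 and 0 in controls and 36.2, 232, 70.2, 0 and 25.98 in knockouts, so 4 knockouts lay above every control. Fitted without the filter on low values its log2 fold change was 2.14 ± 0.79 (SE, unadjusted p = 0.0147 and adjusted p = 0.899 by limma). Ccne1, which encodes cyclin E1, the partner of CDK2, was at 0 in 4 controls and at 2.345 in control 3, and at 13.9, 95.35 and 14.9 in knockouts 1, 3 and 5. Skp2, which encodes the ligase subunit that targets p27, was above 0 in 2 controls (9.26 and 4.59) and in 4 knockouts (7.25 to 43.0). Foxm1, a factor that drives mitotic genes, was above 0 in 2 controls and 4 knockouts, from 0.675 in knockout 4 to 96.95 in knockout 5. None passed by limma without the filter (adjusted p = 0.899 for each). At these levels a library at 0 cannot be told from one with few reads.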
